A study of Homo sapiens with 8 samples.

Results

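The cytosolic ribosomal protein genes encode the protein part of the ribosome that translates nuclear-encoded mRNA. They were taken here as 60 of the 19775 genes measured, namely those whose symbol follows the RPS or RPL pattern for ribosomal proteins. The rule also admits RPSA, RPLP0, RPLP1 and RPLP2, and leaves out RPS6 kinases and pseudogenes. Of the 60, 20 are core proteins of the small subunit, 30 of the large subunit, 2 form the acidic stalk of the large subunit (RPLP1 and RPLP2), and 8 are variant copies of a core gene, called paralogues below. The choice used symbols only and no measured change. Each gene is read from 1 probe set, a group of short array probes read as 1 value, namely the brightest of those annotated with that symbol alone. For 44 of the 60 its name has the suffix s or x (x for 15), the platform's mark for probes that may match several transcripts. Whether those probe sets also measured other transcripts was not tested. Ribosomal protein genes with no such probe set, among them RPL5, RPL23, RPLP0 and RPSA, are outside the 60.

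The samples are arrays of total RNA from CCRF-CEM-C7-14, a glucocorticoid-sensitive clonal derivative of the human T-cell acute lymphoblastic leukaemia line CCRF-CEM. All cells were placed in medium with charcoal-stripped serum, which is depleted of steroids, and received 1 µM dexamethasone, a synthetic glucocorticoid, for 0 h (3 arrays, no hormone), 2 h (3 arrays) or 10 h (2 arrays). Vehicle-treated cells at the later times were not analysed here. Hormone and elapsed time therefore cannot be told apart, and the line is 1 clone. The labels call the arrays of a time biological replicates and say no more of how they were grown. Each p-value and SE draws on the spread between them and, because limma borrows variance across genes, on that of all genes. The borrowed SD was 0.24, with 11.9 degrees of freedom, beside a median residual SD of 0.076 over the members, with 5.

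In mammalian cells, ribosomal protein mRNAs are abundant and long-lived, and most begin with a C followed by an unbroken run of pyrimidines, the terminal oligopyrimidine or TOP tract. When the kinase mTORC1 is inactive, the protein LARP1 binds this tract and translation of the mRNA stops while the mRNA itself is kept. The output of ribosomal protein genes can therefore change with little change in mRNA level, and arrays see the mRNA only. Lymphocytes raise ribosome production when they grow, partly through MYC, and glucocorticoids stop the growth of sensitive lymphoid leukaemia cells.

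The starts of the members' mRNAs are shown because the TOP tract is the feature that most of them share. A C followed by at least 4 letters that are C or T, read on the sense strand alone because the tract is a property of the RNA, stood exactly at the RefSeq start (GRCh38.p14) in 35 of the 52 members with an entry (67.3%), against 4.04% of all 27305 promoters in the table. Within 10 bases of the start, it was present in 44 of the 52 (84.6%), against 33.3% of all promoters. In the windows of 30 bases below, 15 before the start and 15 from it on, the tract beginning at the start is in capitals.
RPS6: aagcggaagttggccCTCTTTTCCgtggcg
RPS19: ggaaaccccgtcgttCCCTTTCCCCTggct
RPS9: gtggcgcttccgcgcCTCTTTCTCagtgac
RPL34: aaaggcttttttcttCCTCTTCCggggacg
RPS21: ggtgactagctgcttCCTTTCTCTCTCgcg
RPL37A: gcaccgcgtctcttcCTTTCTgggctcgga
RPL27A: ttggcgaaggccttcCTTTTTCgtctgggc
RPLP2: ttgcgtcggcgccttCCTTTTCCTCCCTgt

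These windows lie at RPS6 at chr9:19380222-19380251 (minus strand), RPS19 at chr19:41860240-41860269 (plus strand), RPS9 at chr19:54200843-54200872 (plus strand), RPL34 at chr4:108620561-108620590 (plus strand), RPS21 at chr20:62387088-62387117 (plus strand), RPL37A at chr2:216498829-216498858 (plus strand), RPL27A at chr11:8682777-8682806 (plus strand) and RPLP2 at chr11:809952-809981 (plus strand). All 8 carry the tract at the start, among them RPL27A and RPLP2, the members with the lowest fold changes at 10 h, and RPS9, the core gene above background with the highest. The tract was at the start in 14 of 19 small subunit genes, 17 of 25 large subunit genes, both stalk genes and 2 of 6 paralogues. A parent gene and its paralogue can differ, as the next windows show.
RPL22: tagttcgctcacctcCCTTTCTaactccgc
RPL22L1: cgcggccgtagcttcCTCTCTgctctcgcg
RPS27: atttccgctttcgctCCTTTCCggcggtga
RPS27L: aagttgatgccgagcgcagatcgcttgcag
RPL26L1: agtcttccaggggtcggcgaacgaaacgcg
RPL7L1: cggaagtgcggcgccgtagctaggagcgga

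They lie at RPL22 at chr1:6199581-6199610 (minus strand), RPL22L1 at chr3:170870181-170870210 (minus strand), RPS27 at chr1:153990747-153990776 (plus strand), RPS27L at chr15:63157463-63157492 (minus strand), RPL26L1 at chr5:172958714-172958743 (plus strand) and RPL7L1 at chr6:42879601-42879630 (plus strand). RPL22L1 has a tract like that of RPL22, whereas RPS27L, unlike RPS27, has none within 10 bases of the start, and neither have RPL26L1 and RPL7L1. A match is a string of letters at an annotated start, not a measured start of transcription.

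The values are log2 expression as deposited, so a difference of 1 is a doubling. Array medians over all probe sets lay between 4.68 and 5.01, and 0 h replicate 2, 2 h replicate 3 and 10 h replicate 1 had the 3 lowest. The highest of 27 Bacillus control probe sets reached 4.73, taken as background. Of the members, 59 of 60 had a mean above it, as did 13068 of all 19775 genes. RPL36A did not, at a mean of 3.89 in the only probe set annotated to it alone. A probe set annotated to RPL36A together with RPL36A-HNRNPH2, which entered no fit, had a mean of 12.68. T-lineage genes of a fixed list were above background for 16 of 17, including CD3D, LCK and CD7. Other fixed lists gave 2 of 8 myeloid, 5 of 7 B-cell, 2 of 3 erythroid and 4 of 9 epithelial and stromal genes. The hormone response was present in these arrays. TSC22D3, the glucocorticoid-induced leucine zipper gene, read 5.61, 5.51 and 5.80 at 0 h, 8.64, 8.50 and 8.11 at 2 h, and 9.72 and 10.16 at 10 h.

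None of the 60 members passed the test at any time. In limma, with the Benjamini-Hochberg adjustment made across the whole table and a threshold of 0.05, 0 of 60 members were higher and 0 lower at 2 h against 0 h, where 0.0202% of all genes were called higher and 0% lower. At 10 h against 0 h the count was again 0 higher and 0 lower, where 0.334% of all genes were called higher and 0.0202% lower. At 10 h against 2 h it was 0 and 0, where 0.157% and 0.0101% were. At an unadjusted p below 0.05, 0 members were higher at 2 h, against 0.637% of all genes, and 0 lower, against 0.308% (0.946% in either direction). At 10 h, 0 members were higher, against 2.15% of all genes, and 1 was lower, against 1.29%, which makes 1 member and 3.44% of genes in either direction. This was RPL27A, also the 1 member below that p at 10 h against 2 h, where 0 members were higher, against 1.38% of all genes, and 1 was lower, against 1.77% (3.15% in either direction). The moderated F test over the 3 times called 0 members, against 0.283% of all genes, and 1 member had an unadjusted p below 0.05, against 2.49%.

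The differences were small. At 2 h the members' median log2 fold change was 0.023, beside 0.020 over all genes, and 42 of 60 values were above 0, where 55.7% of all genes were. At that time 59 of 60 lay within 0.2 of 0, where 81.6% of all genes did. The 141 other genes with a mean above 12, which are the nearest in brightness to most members, had a median of 0.025 at 2 h, with 74.5% above 0. At 10 h the median was 0.028, beside −0.023 over all genes, again with 42 of 60 values above 0, where 44.6% of all genes were. By then 55 of 60 lay within 0.2, where 71.9% of all genes and 90.8% of the 141 bright genes did. At 10 h against 2 h the median was 0.0025, beside −0.032 over all genes, and 32 of 60 values were above 0, where 42.5% of all genes were. Fewer cells and less RNA per cell cannot be told apart in bulk RNA. The value 0.028 corresponded to a shift smaller than the SD of 0.037 between the member medians of arrays of the same time. It was 0.077 without 10 h replicate 1 and −0.0098 without 10 h replicate 2, so its sign depends on which 10 h array is kept.

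**Figure D1:**
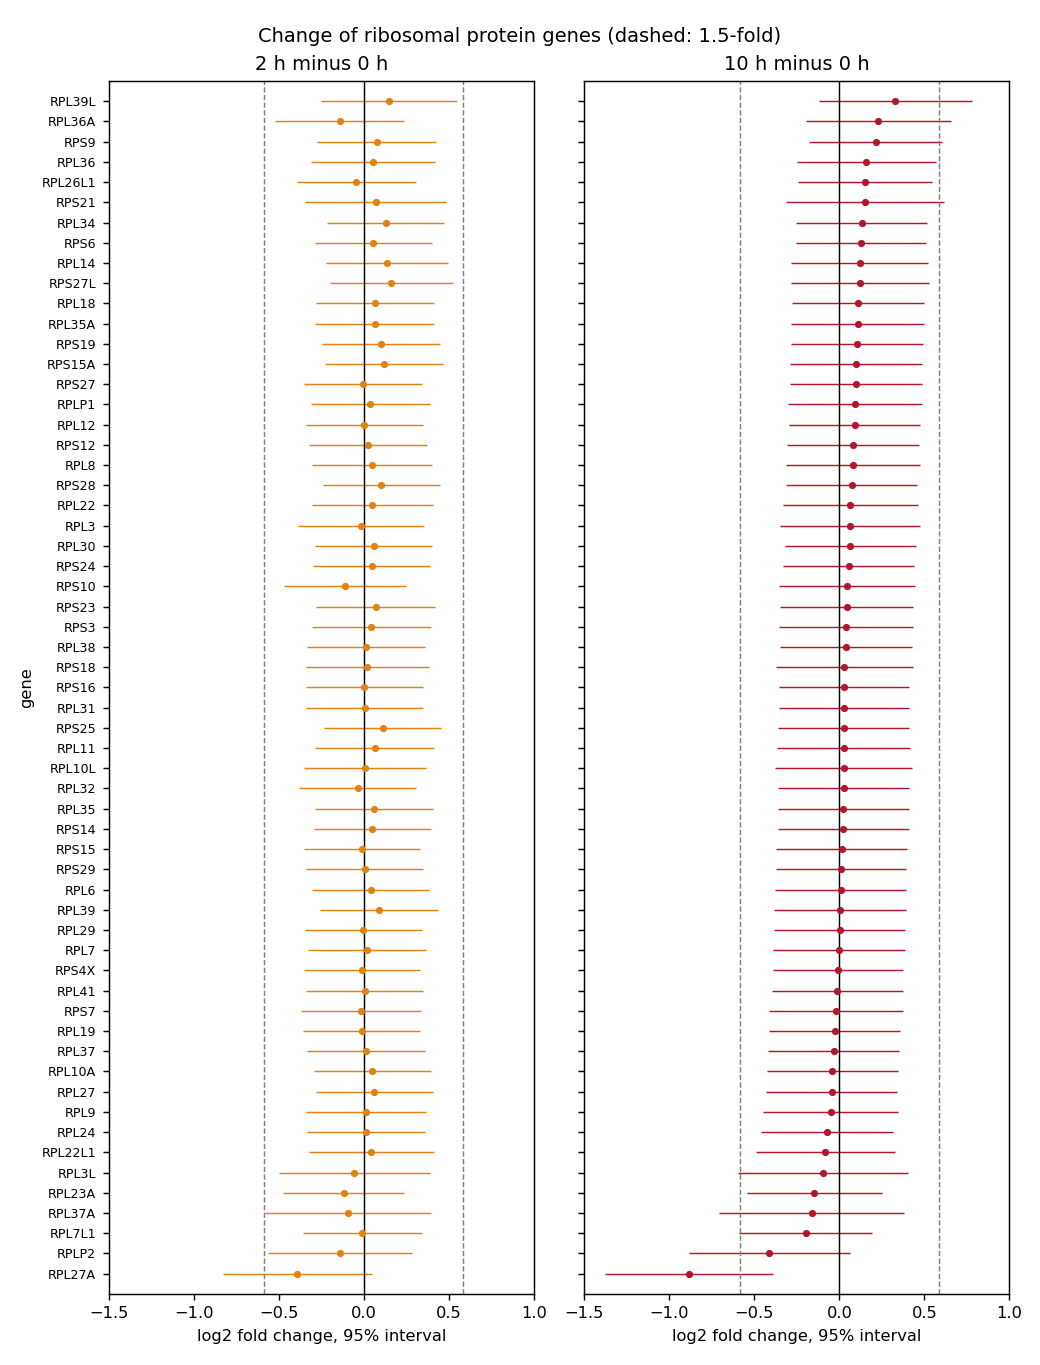
Log2 fold changes (horizontal axis) of 59 ribosomal protein genes (vertical axis, sorted by the 10 h value) at 2 h and at 10 h minus 0 h, with moderated 95% intervals. Dashed lines mark a 1.5-fold change either way, and at 10 h RPL27A alone has an interval that leaves out 0.

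How large a change these arrays would still allow is shown by the intervals, given per gene and not adjusted for their number. The 95% interval of the fold change lay entirely within 1.5-fold either way for 59 of 60 members at 2 h, where it did so for 73.2% of all genes and 95.04% of the 141 bright genes. At 10 h it lay within that bound for 51 of 60 members (85.0%), against 50.7% of all genes and 87.9% of the bright genes, and at 10 h against 2 h for 54 of 60, against 52.2% of all genes and 87.9% of the bright genes. Some members are dimmer than those bright genes. Of the 48 members with a mean above 12, 45 (93.75%) had an interval within the bound at 10 h. The 9 members outside the bound at 10 h were RPL27A, RPLP2, RPL7L1, RPL37A, RPL3L, RPS9, RPS21, RPL39L and RPL36A. At 10 h, 37 members were within it with a replicate block, 54 with trended and robust variances and 55 with array weights.

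Arrays of the same time repeated each other closely for these genes. The residual SD around the time means had a median of 0.076 over the members, beside 0.23 over all genes and 0.12 over the 141 bright genes. Bright probe sets make up most of the list, since 48 of 60 members had a mean above 12 on a scale whose highest value was 13.9. Whether probes near the top of the scale still answered in proportion to RNA was not tested. Dimmer probe sets of the same bright genes cannot decide it, since the transcript each measures was not tested. Over 26 such probe sets with a mean between background and 10, from 18 genes, the median log2 fold change was 0.083 at 2 h and 0.036 at 10 h, with a range of −0.59 to 0.44 at 10 h. Of these 26, 17 lay within 0.2 of 0 at 10 h, where 71.9% of all genes did. All 15 further probe sets of the bright members with a mean above 12 lay within 0.2 of 0 at 10 h. None of the 121 member probe sets was called at any comparison when all 41091 probe sets of a single symbol were fitted, where 5 were called at 2 h and 137 at 10 h against 0 h.

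**Figure D2:**
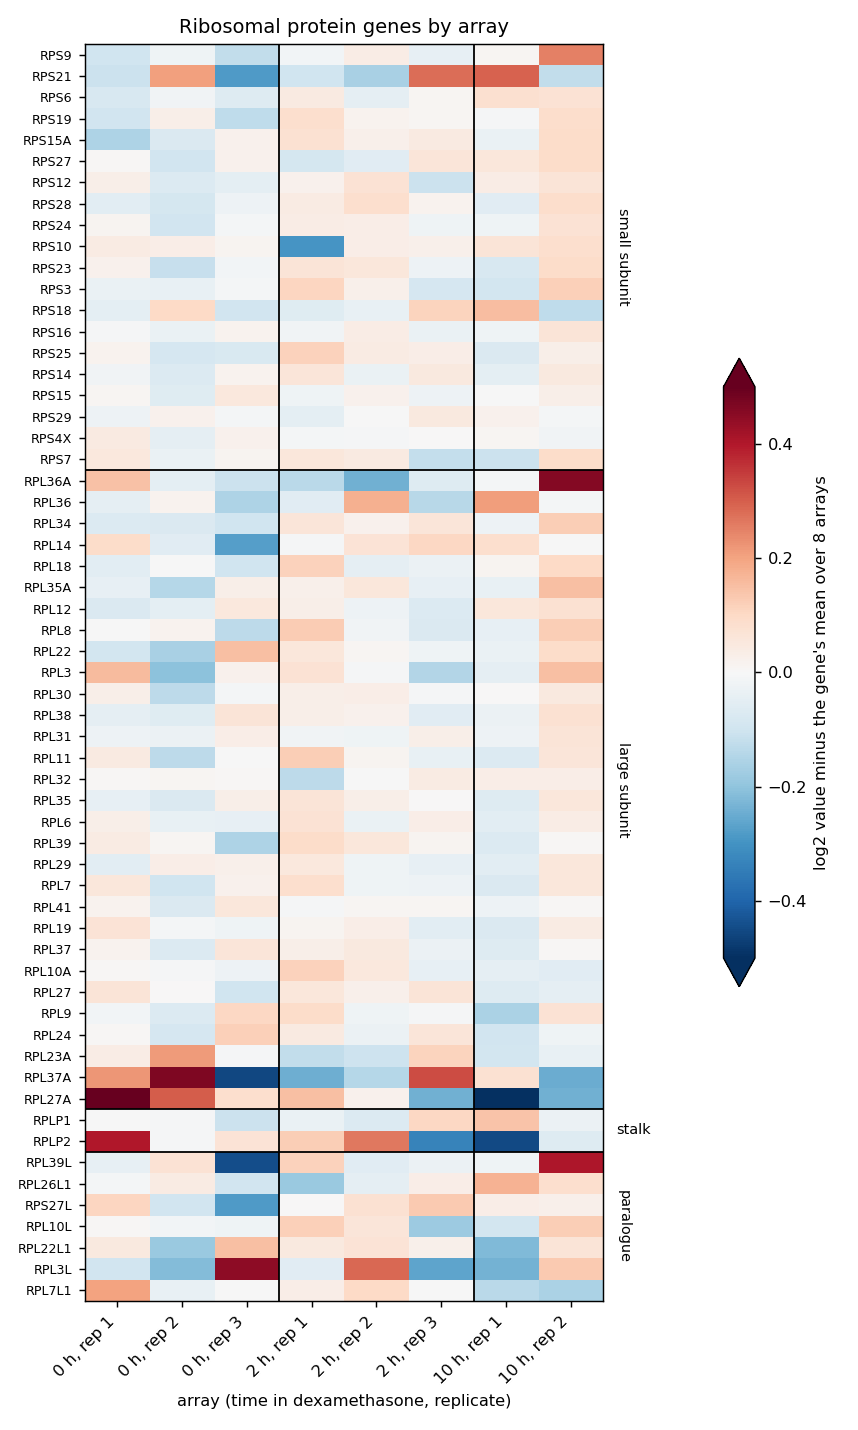
Colour shows each gene's log2 value minus its own mean over the 8 arrays, for 59 members (rows, by role) and 8 arrays (columns, by time). Most cells are pale, and RPL27A, RPLP2, RPL37A, RPS21, RPL3L, RPL39L and RPL36A hold the strongest colours.

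Among small subunit genes, the median log2 fold change was 0.045 at 2 h and 0.043 at 10 h against 0 h, with 15 and 18 of 20 values above 0. At these times 55.7% and 44.6% of all genes were above 0, and 74.5% and 52.5% of the 141 other bright genes. RPS6, the substrate of the S6 kinases downstream of mTORC1, read 13.03, 13.09 and 13.04 at 0 h, 13.15, 13.06 and 13.12 at 2 h, and 13.19 and 13.18 at 10 h. The 10 h arrays lay above all others, yet the difference of 0.13 ± 0.18 (SE) from 0 h did not pass (limma adjusted p = 1.00, 95% interval −0.25 to 0.51). That SE includes the variance borrowed from all genes, and the residual SD of RPS6 itself was 0.035. RPS9, a protein of the small subunit body, had the highest 10 h fold change among core genes above background. It read 12.49, 12.57 and 12.47 at 0 h, 12.58, 12.63 and 12.55 at 2 h, and 12.60 and 12.84 at 10 h. Its difference of 0.21 ± 0.19 (SE) at 10 h came mostly from replicate 2, which lay apart from the other 7 arrays. With a probe set of RPS9 without the suffix s or x, the values were −0.12 at 2 h and −0.07 at 10 h.

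RPS19 and RPS14, whose loss of a copy causes inherited or acquired anaemia, had overlapping arrays. RPS19 had a mean of 13.55 at 10 h (SD 0.07, 2 arrays), against 13.44 at 0 h (SD 0.08, 3 arrays). RPS14 had 13.415 at 10 h (SD 0.07), against 13.39 at 0 h (SD 0.04). RPS3, which lines the mRNA entry channel, had a log2 fold change of 0.04 at 2 h and again at 10 h, and RPS24, a protein of the small subunit, had 0.05 and 0.06. RPS4X, the X-linked form of its protein, had all 8 arrays between 13.20 and 13.28. The Y-linked form, RPS4Y1, is counted as a member and its level is not printed. RPS15A was among the highest at 2 h, with 13.30, 13.25 and 13.27 in the hormone arrays against 13.07, 13.15 and 13.24 at 0 h, a difference of 0.12 ± 0.16 (SE). RPS10 had the lowest value of its subunit at 2 h, −0.11, because 2 h replicate 1 read 12.85 while the other 7 arrays read 13.17 to 13.24.

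Among large subunit genes, the median was 0.016 at 2 h and 0.024 at 10 h against 0 h, with 22 and 19 of 30 values above 0. The shares were 55.7% and 44.6% over all genes, and 74.5% and 52.5% over the 141 other bright genes. RPL11, which with RPL5 and the 5S RNA can bind and block MDM2, had a mean of 12.86 at 10 h (SD 0.09), against 12.83 at 0 h (SD 0.09). RPL3, next to the peptidyl transferase centre, had a log2 fold change of −0.02 at 2 h and 0.06 at 10 h. RPL38, known in mice for its part in translating Hox mRNAs, had 0.01 and 0.04. Its dimmer probe sets, with means of 8.15 and 7.92, had −0.24 and −0.21 at 2 h. At 10 h they had −0.37 and −0.34, neither called. RPL39, in the exit tunnel, had 0.09 and 0.0037, and RPL7 0.02 and −0.0031. RPL41, the shortest ribosomal protein, had 0.0035 and −0.01, with all 8 arrays between 13.75 and 13.87.

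RPL34, a large subunit surface protein, was the only member whose arrays at 2 h and at 10 h all lay above every 0 h array. It read 12.85, 12.85 and 12.82 at 0 h, 12.98, 12.94 and 12.98 at 2 h, and 12.90 and 13.04 at 10 h, a log2 fold change of 0.13 at each time (SE 0.16 at 2 h and 0.18 at 10 h). Both comparisons share the 0 h arrays. RPL14 had 0.13 at 2 h and 0.12 at 10 h, and RPL36 had 0.06 and 0.16, with overlapping arrays at both times. The other RPL14 probe sets differed in direction. The brighter, with a mean of 12.44, had 0.12 and 0.07, and the dimmer, with a mean of 6.79, had −0.18 and −0.59, neither called. RPL23A, which sits at the tunnel exit where signal recognition particle docks, read 12.97, 12.99 and 13.21 at 2 h, 13.00 and 13.05 at 10 h, and 13.13, 13.31 and 13.09 at 0 h. Its differences were −0.12 ± 0.17 (SE) at 2 h and −0.15 ± 0.19 (SE) at 10 h, neither called. Brighter probe sets annotated to RPL23A together with SNORD42A, which entered no fit, had −0.17 to −0.04 at 2 h. At 10 h they had −0.03 to 0.0031.

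RPL27A, a large subunit core protein, had the fold change farthest from 0 in the list at both times. It read 7.64, 7.22 and 7.005 at 0 h, 7.07, 6.94 and 6.68 at 2 h, and 6.13 and 6.68 at 10 h. All 10 h arrays lay below all 0 h arrays, and the 2 h arrays overlapped with both. The log2 fold change was −0.39 ± 0.21 (SE) at 2 h and −0.88 ± 0.23 (SE) at 10 h, with a 95% interval of −1.38 to −0.39 at 10 h and an unadjusted p of 0.0015. It did not pass over all genes (limma adjusted p = 0.23). It passed after quantile normalization (−0.91, adjusted p = 0.043) and with array weights (−1.13, adjusted p = 0.0056), and had −0.61 without 10 h replicate 1. Its 10 h difference was −1.10 among the 3 low-median arrays and −0.64 among the remaining 5. These values come from a dim probe set, with a mean of 6.92, the only one annotated to RPL27A alone.

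A pair of further probe sets is annotated to RPL27A together with SNORA3A, a small nucleolar RNA gene, and was read after the values above were seen. The brighter one gave 13.22, 13.09 and 13.23 at 0 h, 13.21, 13.29 and 13.20 at 2 h, and 13.14 and 13.29 at 10 h, with overlapping groups and a difference of 0.03 at 10 h against 0 h. The dimmer one had a mean of 7.15 at 10 h, against 7.17 at 0 h. Neither shows the lower level that the probe set of RPL27A alone gave. The transcript each of them measures was not tested.

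The stalk recruits translation factors to the ribosome. RPLP1 had a mean of 13.45 at 10 h (SD 0.12, 2 arrays), against 13.36 at 0 h (SD 0.06, 3 arrays), a difference of 0.09 ± 0.19 (SE). RPLP2 read 6.09, 5.68 and 5.76 at 0 h, 5.81, 5.95 and 5.35 at 2 h, and 5.24 and 5.62 at 10 h. Both 10 h arrays lay below all 0 h arrays, but the difference of −0.41 ± 0.22 (SE) did not pass (95% interval −0.89 to 0.06), and 2 h lay at −0.14. This too is a dim probe set, and the other one of RPLP2 alone was below background. A probe set shared with the small nucleolar RNA gene SNORA52, also read afterwards, had a difference of 0.25 at 10 h, of opposite sign, with overlapping groups. It read 12.39, 12.76 and 12.11 at 0 h, 12.23, 12.25 and 12.78 at 2 h, and 12.88 and 12.45 at 10 h. The highest array at each time was the one among the 3 with the lowest medians.

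The 8 paralogues showed no shared direction, with medians of −0.0015 at 2 h and −0.00017 at 10 h. RPL22, which mice need for αβ T-cell development and which is lost in some T-cell leukaemias, had 0.05 at 2 h and 0.06 at 10 h. RPL22L1, its replacement when RPL22 is missing, had 0.04 and −0.08. RPS27 had −0.0048 and 0.10, and RPS27L, a target of p53, had 0.16 ± 0.17 (SE) and 0.12 ± 0.19 (SE), the 2 h value being the highest of all members. For RPS27L the 10 h value was −0.07 with its 3 probe sets averaged, and the 2 h value was −0.01 with array weights. RPL7L1, a nucleolar relative of RPL7, read 10.51, 10.28 and 10.31 at 0 h, 10.35, 10.41 and 10.31 at 2 h, and 10.18 and 10.15 at 10 h. Its 10 h arrays lay below the other 6, with −0.20 ± 0.19 (SE) against 0 h. A probe set annotated to RPL7L1 together with WAC-AS1, which entered no fit, had a difference of 0.06. RPL26L1 read 10.66 and 10.57 at 10 h, above the other 6 arrays, with a difference of 0.15 ± 0.19 (SE) from 0 h.

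RPL39L, which in mice serves male germ cells, had the highest 10 h value, 0.33 ± 0.21 (SE). It read 7.73 and 8.15 at 10 h, against 7.71, 7.82 and 7.31 at 0 h, so the groups overlapped. Among the 3 low-median arrays that difference was −0.09, and among the remaining 5 it was 0.65. RPL3L, a muscle form, and RPL10L, a testis form, had −0.10 and 0.02 at 10 h, from means of 5.26 and 6.13. RPL36A had 0.23 at 10 h from below background, while the bright probe set shared with RPL36A-HNRNPH2 had a difference of 0.12.

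**Figure D3:**
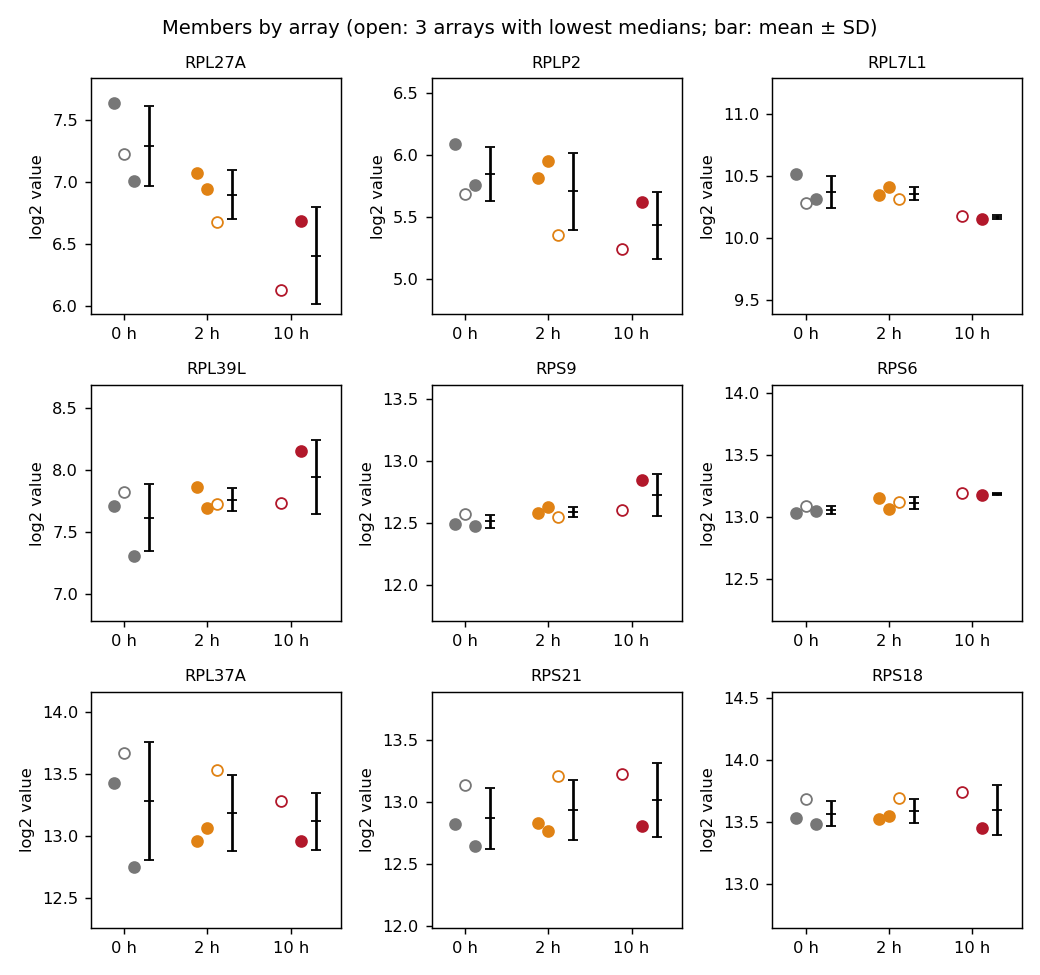
Log2 values (vertical axis, the same span in every panel) of 9 members by time (horizontal axis), with open circles for the 3 arrays with the lowest medians and bars for mean ± SD. RPL27A stands lower at 10 h, while RPS21 and RPS18 separate open from filled circles at every time.

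Groups whose arrays did not overlap were counted as well. At 2 h, 4 of 60 members had all hormone arrays above the 0 h arrays (RPL34, RPS15A, RPS25 and RPS28) and 0 had all below, where 2.94% and 1.10% of all genes did. At 10 h, 10 members lay above and 5 below, where 6.56% and 6.51% of all genes did. The 10 were RPL12, RPL18, RPL26L1, RPL32, RPL34, RPS10, RPS12, RPS27, RPS6 and RPS9, and the 5 were RPL10A, RPL23A, RPL27A, RPL7L1 and RPLP2. The log2 fold changes of the 10 were between 0.02 and 0.21. At 10 h against 2 h, 5 lay above (RPL12, RPL26L1, RPL36A, RPS10 and RPS6) and 5 below (RPL10A, RPL27, RPL39, RPL7L1 and RPS25), where 5.43% and 9.29% of all genes did. The highest fold changes between these times among members above background were 0.20 for RPL26L1, 0.18 for RPL39L and 0.15 for RPS10. The lowest were −0.49 for RPL27A, −0.27 for RPLP2 and −0.19 for RPL7L1.

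Arrays of the same time also differed from each other. The members' median deviation from the gene means was 0.0069, −0.041 and −0.0076 at 0 h, 0.038, 0.021 and −0.0060 at 2 h, and −0.033 and 0.062 at 10 h. For all genes it ran from −0.16 to 0.095. The 2 arrays at 10 h thus lay near the lower and upper ends of the members' range.

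**Figure D4:**
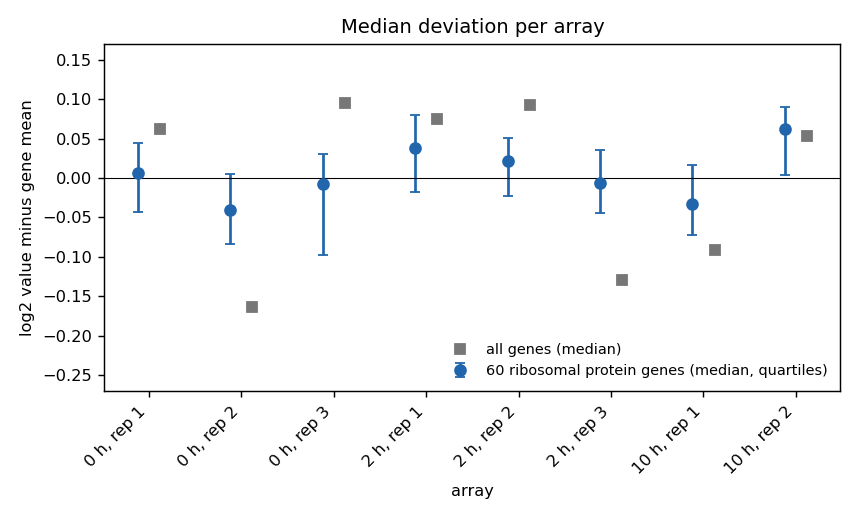
Median deviation of log2 values from the gene means (vertical axis) per array (horizontal axis), for the 60 members with quartiles and for all genes. The members stay between −0.041 and 0.062, while all genes dip in 0 h replicate 2, 2 h replicate 3 and 10 h replicate 1.

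A few members separated the arrays across all times. The 3 arrays with the lowest medians, 1 at each time, had higher values than the other 5 for RPS21, at 13.13 to 13.23 against 12.64 to 12.83. The same held for RPS18, at 13.68 to 13.74 against 13.46 to 13.55. With time in the fit, these differences were 0.41 for RPS21, 0.20 for RPS18 and 0.49 for RPL37A, whose arrays overlapped. For RPS21 the 10 h difference was 0.15 over all arrays, 0.09 among the 3 and 0.07 among the remaining 5. RPL37A had −0.10 ± 0.23 (SE) at 2 h and −0.16 ± 0.26 (SE) at 10 h, with a residual SD of 0.37, against a median of 0.076 over the list. The opposite arrangement was seen for RPL3L, at −0.38. Of 60 members, 3 lay wholly above and 12 wholly below in those 3 arrays, and over all genes 0.845% and 22.8% did. What set the 3 arrays apart was not tested.

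Other genes of the translation machinery were read from fixed lists, described by counts beside the 60 members. MYC, a transcription factor that drives ribosome production, read 11.41, 11.18 and 11.16 at 0 h, 11.28, 11.22 and 10.90 at 2 h, and 10.14 and 10.35 at 10 h, and fell by 1.01 at 10 h against 0 h (SE 0.20, limma adjusted p = 0.030). Of 67 ribosome biogenesis and nucleolar genes, 13 had a value above 0 at 10 h and the median was −0.18, where 44.6% of all genes were above 0. None was called, where 0.354% of all genes were, and 5 were lower at an unadjusted p below 0.05, where 1.29% were. LYAR, a nucleolar protein, had −0.74 and BRIX1, a large subunit assembly factor, −0.58. The ribosomal protein genes had 42 of 60 above 0 and a median of 0.028 at the same time. The difference between these lists was not tested.

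Of 75 mitochondrial ribosomal protein genes, 69 were above 0 at 2 h with a median of 0.11, where 55.7% of all genes were. At 10 h 40 were, with a median of 0.028, where 44.6% of all genes were. None was called, where 0.0202% of all genes were at 2 h and 0.354% at 10 h. MRPS6 had −0.36 and MRPL38 0.35 at 10 h. Of 27 initiation factors, 10 were above 0 at 10 h with a median of −0.068, none called, with EIF5B at −0.40 and EIF3J at −0.36. The 3 measured elongation factors, whose mRNAs also carry TOP tracts, had −0.02 (EEF1A1), 0.29 (EEF1D) and 0.22 (EEF2) at 10 h, none called. Of 12 other mRNAs known to begin with a TOP tract, 6 were above 0 at 10 h with a median of 0.013 and none called, with NPM1, a nucleolar chaperone also in the biogenesis list, at −0.24 and HNRNPA1, a splicing regulator, at 0.15. FAU, which encodes a small subunit protein outside the symbol rule, had 0.04, and RPL36AL, a copy of RPL36A, had 0.29.

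Of 22 genes tied to mTORC1 control of TOP mRNAs, 1 passed at 10 h, where 0.354% of all genes did. DDIT4, an inhibitor of mTORC1, rose by 1.20 at 10 h against 0 h (limma adjusted p = 0.0055). LARP1B, a relative of LARP1, had −0.55 and did not pass. Of 8 genes of the MDM2 and p53 checkpoint that senses unassembled ribosomal proteins, none was called, with SESN1 at 0.85 (adjusted p = 0.12) and SESN2 at 0.40. Among 14 chaperones and import receptors of ribosomal proteins, none was called, with IPO5 at −0.28 and LTV1, which is also in the biogenesis list, at −0.24.

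**Figure D5:**
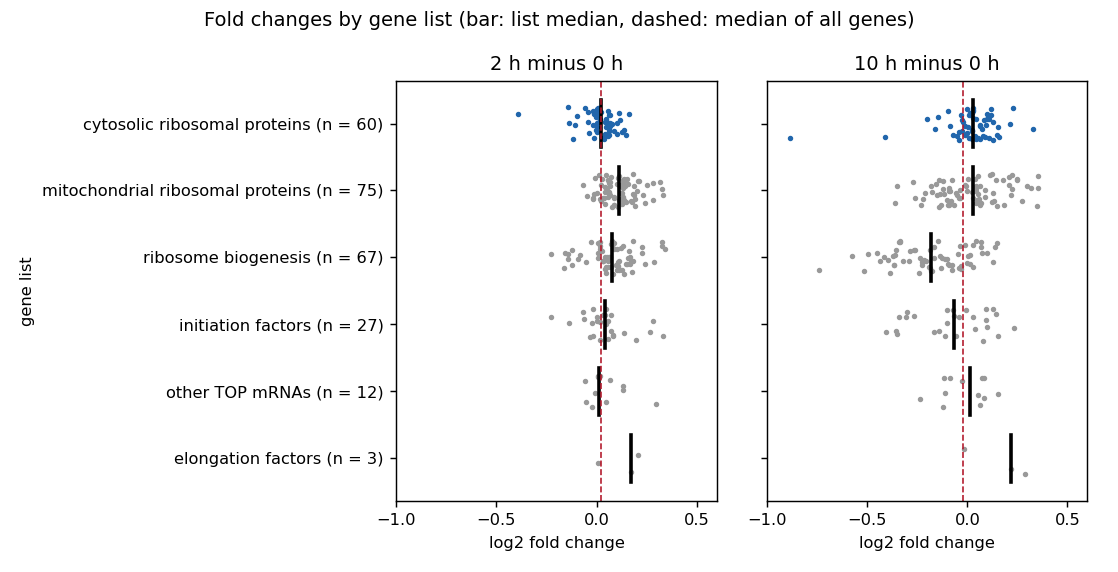
Log2 fold change (horizontal axis) of each gene in 6 lists (rows) at 2 h and 10 h minus 0 h, with a bar at each list's median and a dashed line at the median of all genes. The ribosomal protein genes (blue) lie within 0.2 of 0 apart from 1 gene at 2 h and 5 at 10 h.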

How the data were processed

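Expression was measured on 8 single-colour arrays of 54675 probe sets. The authors deposited a table on the log2 scale, made with RMA per the submitters' processing notes, which name no version. RMA corrects background, normalizes quantiles and summarises probes. Unequal array medians show that the columns do not share a single distribution. Depth does not apply to arrays: their number limits the precision. The 41091 probe sets with 1 symbol in the platform annotation gave 19775 genes, the brightest probe set by mean over 8 arrays standing for each. The treated arrays enter that mean. A further 65 probe sets join a symbol that meets the rule to other symbols, often small nucleolar RNAs in introns, and entered no fit, so 9 of 32 panel genes, such as RPL5 and RPL23, were not analysed here. Entrez identifiers matched 52 of 60 members to RefSeq start sequences.

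Values were fitted with limma 3.58.1 (R 4.3.3), a mean per time, all 8 arrays sharing a spread with 5 residual degrees of freedom, and tested two-sided. The fit was tested on simulated data. Moderation drew on a prior SD of 0.24 from all genes, wider than the members' own spread. Lists, panel and members were chosen with earlier results of these data known. Named were the panel, the 5 highest and 5 lowest members above background at 2 h and at 10 h (3 and 3 between these times), called genes, and 2 genes with the largest change per list. RPS18, RPS25, RPS28 and others named for array overlap were chosen after their values were seen. Whether same-numbered replicates were paired cannot be told from these values. Their deviations from the time means correlated at −0.27 to 0.26 over 7 pairs. The 2 arrays at 10 h have mirror-image deviations, so their correlations with any other array differ in sign only. Alternatives were median centring, quantile normalization, dim genes left out, other probe set rules, trended and robust variances, array weights, only the arrays of the times compared, a replicate block, a block for or removal of the 3 low-median arrays, and each array left out.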

Additional observations from a re-analysis of the deposited data

How the results depend on the processing

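The number of members called was 0 in either direction at 2 h and at 10 h against 2 h in all 20 alternatives, and at 10 h against 0 h in 18 of them. The exceptions were quantile normalization and array weights, each with 1 member lower, RPL27A. The members' median log2 fold change moved by less than the SD between arrays of a time (0.037) in every alternative except those without a 10 h array. Leaving out each array in turn gave 0.0100 to 0.044 at 2 h against 0 h, −0.0098 to 0.077 at 10 h against 0 h and −0.048 to 0.042 at 10 h against 2 h. With a replicate block these medians were 0.023, 0.034 and −0.0025, and no call among members changed. Over all genes, the count called ran from 1 to 26 at 2 h (4 as reported), 30 to 127 at 10 h against 0 h (70) and 12 to 62 at 10 h against 2 h (33). Every member probe set above background, an alternative chosen after seeing the data, gave medians of 0.039, 0.035 and 0.00057. Of 3360 estimates of members under the remaining alternatives, 343 had the opposite sign, none of them called. Precision is limited by 2 or 3 arrays a time and depends on the variance model: the members' median SE at 10 h against 0 h was 0.184 as reported, 0.112 with trended and robust variances and 0.246 with a replicate block.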
